A study of Mus musculus with 23 samples.

Results

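The genes that load and display peptides on MHC class II molecules were followed across 23 mouse bulk RNA-seq libraries: 6 of normal thymus, 14 of T-cell acute lymphoblastic leukemia (T-ALL) arising from wild-type thymus grafts, and 3 of T-ALL arising from Notch3 knockout grafts. The members were chosen by name, as 8 of the 24475 genes in the deposited table: H2-Aa, H2-Ab1, H2-Eb1, Cd74, Ciita, H2-DMa, H2-DMb1 and Ctss. The thymus controls came from normal C57BL/6 mice. Both T-ALL groups were sampled as unfractionated spleen of BALB/c Rag2-/-Il2rg-/- recipients, which lack their own T, B and NK cells but keep their myeloid and stromal cells, so each T-ALL library held donor-derived leukemia together with host tissue. The recipients were young adults when grafted, and disease followed months later. The age of each recipient at sampling and the age of the thymus controls were not given in the sources used here. The wild-type donors were neonatal C57BL/6 mice of the H-2b haplotype carrying the CD45.1 allele (B6.SJL-Ptprca Pep3b/BoyJ). The knockout donors carried a β-galactosidase insertion in the first coding exon of Notch3, and their strain background was not stated in the sources used here. Each T-ALL was a separate disease in its own recipient. The labels do not name the animals behind the thymus libraries. The study plots expression in T-ALL and normal thymus with a point per mouse. Tissue, host strain and leukemia changed together between thymus and T-ALL and cannot be told apart, and in whole tissue fewer cells of a type cannot be told apart from less RNA per cell.

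An MHC class II molecule is a pair of an α and a β chain. In the mouse, H2-Aa and H2-Ab1 encode the chains of I-A, and H2-Ea and H2-Eb1 encode the chains of I-E. Cd74, the invariant chain, escorts new class II molecules to the endosome, where proteases such as cathepsin S (Ctss) trim it, and the H2-DM dimer (H2-DMa with H2-DMb1) then exchanges the remaining fragment for antigenic peptide. Ciita is the transactivator that switches on the class II genes. Mouse T cells do not normally make class II; dendritic cells, B cells, activated macrophages and thymic epithelium do. The H-2b haplotype of C57BL/6 carries a promoter deletion in H2-Ea and makes no I-E α chain, whereas the H-2d haplotype of BALB/c makes one. H2-Ea, which the table lists as a pseudogene (H2-Ea-ps), was therefore read beside the members.

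Of the members, 5 lie in the MHC on chromosome 17. On GRCm38 with the GENCODE M21 annotation, H2-DMa (gene 14998) spans chr17:34119541-34139101 and H2-DMb1 (14999) spans chr17:34153072-34160230, both on the plus strand. H2-Ab1 (14961, plus strand) spans chr17:34257689-34269419 and H2-Aa (14960, minus strand) spans chr17:34282744-34287823. H2-Eb1 (14969, plus strand) spans chr17:34305867-34316674, and H2-Ea-ps (100504404, minus strand) follows it at chr17:34341959-34344645. Ctss (13040) lies at chr3:95526786-95556403 and Ciita (12265) at chr16:10480059-10528418, both on the plus strand, and Cd74 (16149) lies outside the MHC too.

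Class II promoters are known for a shared stretch upstream of the start site: an X box bound by the RFX complex, a CREB site beside it, and a Y box bound by NF-Y, the platform on which Ciita acts. RefSeq promoters of GRCm38.p6, from 250 bases before to 50 after the start, were found for 5 members. In 3 of them, H2-Aa, H2-Eb1 and H2-DMb1, the letters GNAACT stood 24 or 25 bases ahead of TGATTGG. These stretches are shown because the promoter is what the class II genes share outside their values; capitals mark the 2 motifs, and each sequence reads 5′ to 3′ along the gene's strand.
H2-Aa: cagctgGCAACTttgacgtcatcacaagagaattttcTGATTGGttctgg
H2-Eb1: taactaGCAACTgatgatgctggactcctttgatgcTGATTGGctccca
H2-DMb1: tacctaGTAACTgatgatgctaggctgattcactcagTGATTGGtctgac
The stretch is chr17:34287861-34287910 on the minus strand for H2-Aa, chr17:34305770-34305818 on the plus strand for H2-Eb1 and chr17:34153091-34153140 on the plus strand for H2-DMb1. The GNAACT letters began 81, 91 and 94 bases before the RefSeq start site, respectively. For H2-Aa and H2-Eb1 that start is where the gene span given above begins along the gene's strand, whereas the RefSeq start of H2-DMb1, at position 34153191, lies inside its longer GENCODE span, and so does its stretch. The motif letters were chosen with these promoters in view. On either strand, TGATTGG was present in 7.82% and GNAACT in 42.8% of 32851 promoters of the same length, and GNAACT followed within 10 to 40 bases by TGATTGG in 0.274%. The promoters of Ctss and H2-DMa did not hold the pair of letters. Ctss held neither motif, and of the 2 H2-DMa starts, 1 held GNAACT without TGATTGG.

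Levels are given as the deposited log2(scaled RPKM + 1), where RPKM is the read count of a gene corrected for its length and for the depth of the library, scaled by the authors so that the 75th percentile of genes is 10 in each library. In the thymus Cd74 was highest among the members, at a mean log2 level of 5.56 ± 0.68 (SD, n = 6). H2-Ab1, H2-Aa, Ctss and H2-Eb1 followed at 4.62 ± 0.73, 4.59 ± 0.76, 4.57 ± 0.68 and 4.34 ± 1.04, neighbours that did not differ beyond their spread. The accessory and regulatory genes were lower, H2-DMa at 2.93 ± 0.23, H2-DMb1 at 1.62 ± 0.29 and Ciita at 0.83 ± 0.34. In WT T-ALL the order of Cd74, the classical chains and Ctss, H2-DMa, H2-DMb1 and Ciita was kept, with Cd74 at 5.28 ± 1.20 (n = 14), Ctss at 4.56 ± 1.43, H2-Aa at 4.21 ± 1.22, H2-Ab1 at 3.82 ± 0.95, H2-Eb1 at 3.54 ± 1.29, H2-DMa at 2.80 ± 0.85, H2-DMb1 at 1.20 ± 0.77 and Ciita at 0.71 ± 0.53. All 8 members passed the filter on low values used for the tests, which kept genes reaching a scaled RPKM of 1 in 3 libraries or more.

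Some libraries stood apart before any group was compared. A set of 9 libraries, holding thymus 5 and 6, WT T-ALL 3, 4, 5 and 7 and all 3 Notch3 KO T-ALL, had log2 levels of Sco2 between 2.30 and 3.92, against 0.00 to 1.00 in the 14 others; the labels name no batch, and these are called set A and set B below. Low values stepped in whole reads, which gave the relative worth of 1 read in each library. That worth ran from 0.617 to 3.62 times that of thymus 1, so the shallowest libraries (thymus 6 and WT T-ALL 4) had the least precise low values. The T-cell marker list, with Cd3e and Lck, had a summed scaled RPKM of 2006 to 2463 in thymus libraries, 967 to 2637 in wild-type T-ALL and 1220 to 1623 in knockout T-ALL. Notch3 itself, as a check of the labels, was at log2 levels of 3.22, 2.59 and 3.74 in the 3 knockout tumors, against 2.62 to 4.29 for thymus and 3.17 to 5.78 for wild-type tumors. Knockout against wild-type tumors differed by -1.56 (adjusted p = 0.101 by limma). Each value covers the whole gene beyond the insertion and takes in host cells, so it does not check the knockout. The part of either in the level was not tested.

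**Figure D1:**
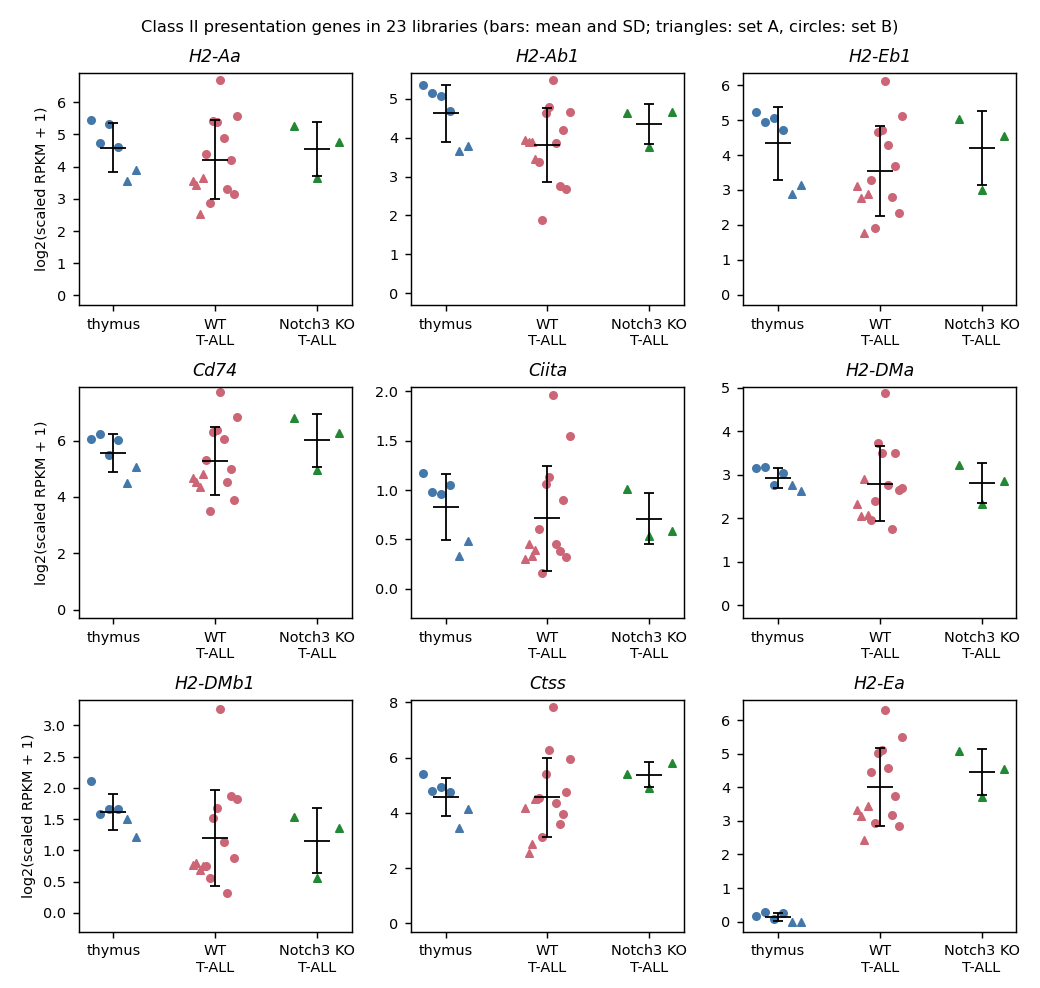
Deposited log2(scaled RPKM + 1) of the 8 members and of H2-Ea in each library, by group (vertical axes differ between panels; bars are the mean and SD, triangles the libraries of set A and circles those of set B). Thymus and T-ALL overlapped for every member, whereas every T-ALL library lay above every thymus library for H2-Ea.

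Setting WT T-ALL beside thymus asks how these genes are expressed in a leukemic spleen and in the normal tissue of origin. No member passed the test. With limma over all genes and Benjamini-Hochberg adjustment, 0 of 8 members were called at an adjusted p under 0.05 and 0 of 8 had an unadjusted p under 0.05, while 51.6% of the 11919 genes tested were called (29.3% higher and 22.3% lower). The exact permutation test of each member, two-sided, gave 0 of 8 at an unadjusted p under 0.05, with p from 0.0825 to 0.987. The differences in mean log2 ran from -0.80 to -0.01, all 8 below 0, with a median of -0.33 beside 0.08 over all genes, and the 95% intervals reached from 0.47 to 1.14 to either side. A p that misses the threshold does not show that the levels were the same.

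H2-Ab1, the I-A β chain, showed the lowest adjusted p of the members. Its log2 level was 5.35, 5.16, 5.06, 4.69, 3.67 and 3.79 in thymus 1 to 6, and ran from 1.88 (WT T-ALL 36) through a median of 3.89 to 5.47 (WT T-ALL 110). Thymus 1 to 4 were high, thymus 5 and 6 sat in the middle of the T-ALL range, and the groups overlapped. The difference was -0.80 ± 0.39 (SE; 95% interval -1.61 to 0.01, adjusted p = 0.0919 by limma), a fold of 0.574. Without thymus 5 and 6 it was -1.25 (adjusted p = 0.0293), a setting chosen after the data were seen. Within set A the difference was 0.07 (2 thymus and 4 WT T-ALL libraries, exact permutation p = 0.80, smallest possible 0.0667), and within set B it was -1.24 (4 and 10 libraries, exact permutation p = 0.0540).

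H2-Eb1, the I-E β chain, had log2 levels of 5.25 at the highest in thymus and 2.88 at the lowest, with a median of 4.83. In WT T-ALL the lowest was 1.77, the median 3.20 and the highest 6.13. Its difference, -0.80 ± 0.55 (SE; 95% interval -1.93 to 0.33, adjusted p = 0.225), was of the same size as that of H2-Ab1 with a wider spread. H2-Aa, the I-A α chain, had a thymus median of 4.67 (3.54 to 5.44) and a WT T-ALL median of 3.91 (2.52 to 6.69). The difference was -0.37 ± 0.49 (SE; adjusted p = 0.541). Cd74 had a thymus median of 5.76 (4.50 to 6.24) and a WT T-ALL median of 4.90 (3.50 to 7.70), a difference of -0.29 ± 0.49 (SE; adjusted p = 0.643). For all 4 of these genes the WT T-ALL range extended both below and above that of the thymus.

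The peptide-exchange genes and the transactivator were low in both tissues. H2-DMb1 ran from 1.22 to 2.11 in thymus and from 0.32 to 3.26 in WT T-ALL, with a difference of -0.42 ± 0.31 (SE; adjusted p = 0.250). Without WT T-ALL 110, H2-Ab1 (-0.93, adjusted p = 0.0356) and H2-DMb1 (-0.58, adjusted p = 0.0333) both passed. H2-DMa differed by -0.13 and Ciita by -0.12, with 95% intervals of -0.80 to 0.54 and -0.58 to 0.35. Ctss had the same mean in both groups to within 0.01, with an interval of -1.15 to 1.13, and its sign turned when any 1 of 11 of the 23 libraries was left out. On another scale, in which each library was set to a common sum without mitochondrial and hemoglobin genes, the median of all genes moved to -0.27 and the share of called genes that were higher fell from 56.8% to 28.8%; there H2-Ab1 (-1.19, adjusted p = 0.0103) and H2-DMb1 (-0.70, adjusted p = 0.0442) were called.

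**Figure D2:**
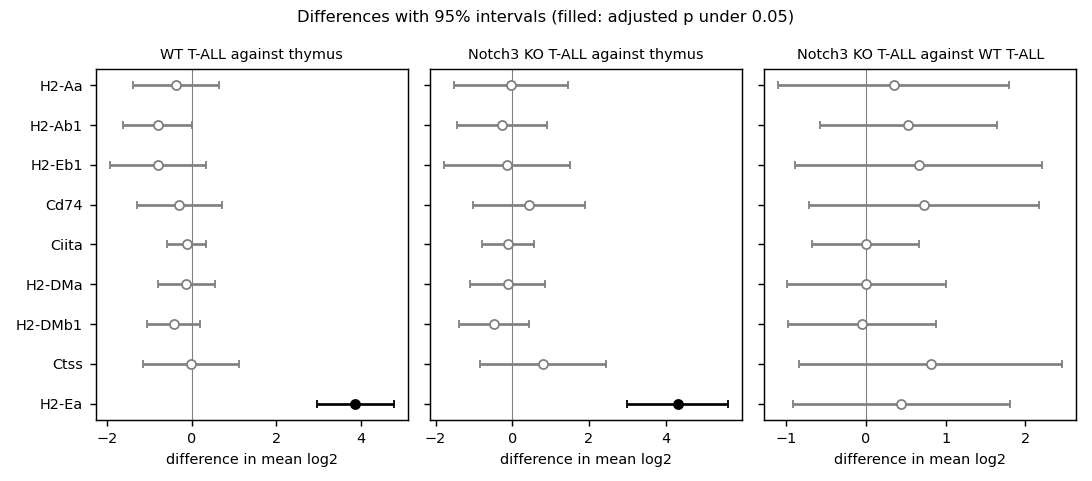
Difference in mean log2(scaled RPKM + 1) for the 8 members and H2-Ea in 3 comparisons, with 95% intervals from limma (filled points have an adjusted p under 0.05). The intervals of the 8 members all include 0, and H2-Ea alone is called, at 3.87 and 4.32 above thymus.

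H2-Ea, the I-E α chain that C57BL/6 lacks, separated thymus from T-ALL libraries where the members did not. The C57BL/6 haplotype fixes a level near 0 in the thymus in advance, so the tests below carry no evidence on the tissue. Its log2 level was 0.17, 0.28, 0.07 and 0.25 in thymus 1 to 4, and it was listed at 0 in thymus 5 and 6. In WT T-ALL the lowest level was 2.42 (WT T-ALL 5), the median 3.59 and the highest 6.29 (WT T-ALL 110), and the 3 Notch3 KO T-ALL libraries read 5.06, 3.72 and 4.55. All 17 T-ALL libraries lay above all 6 thymus libraries. The difference was 3.87 for WT T-ALL (adjusted p = 3.01e-07 by limma) and 4.32 for Notch3 KO T-ALL (adjusted p = 2.29e-05), on a scale whose offset of 1 understates changes from near 0; the gene passed the filter through T-ALL libraries alone. The mean scaled RPKM was 0.0954 ± 0.0929 for the 6 thymus libraries, 21.0 ± 20.3 for the 14 wild-type tumors and 22.3 ± 10.2 for the 3 knockout tumors (SD). Within set B the difference was 4.17 (exact permutation p = 0.000999, the smallest possible) and within set A it was 3.09 (exact permutation p = 0.0667, the smallest possible).

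Within the T-ALL libraries, H2-Ea stood nearly level with H2-Aa in every animal. The H2-Aa level minus the H2-Ea level averaged 0.20 ± 0.16 on the log2 scale (SD, n = 17), with a range of -0.08 to 0.44, although H2-Aa itself spanned 2.52 to 6.69 in these libraries. In the thymus the same difference was 4.46 ± 0.70 (n = 6). H2-Eb1 kept a similar distance, with H2-Aa exceeding it by 0.23 to 1.12 in all 17 T-ALL libraries. H2-Ab1 did not: H2-Aa minus H2-Ab1 was -0.03 ± 0.24 in thymus (range -0.44 to 0.27) but ran from -1.37 in WT T-ALL 5 to 1.22 in WT T-ALL 110, with an SD of 0.73 over the 14 WT T-ALL libraries. Among WT T-ALL the 4 libraries of set A lay between -1.37 and 0.19 and the 10 of set B between 0.0071 and 1.22, ranges that overlap, while the 3 knockout libraries, also of set A, were at 0.64, -0.12 and 0.10. These differences were chosen after the values were seen and were not tested. The reads were mapped to mm10, which is a C57BL/6 genome, and class II exons are highly polymorphic between H-2b and H-2d, so the mapping of host reads and the level of host transcript cannot be told apart here.

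**Figure D3:**
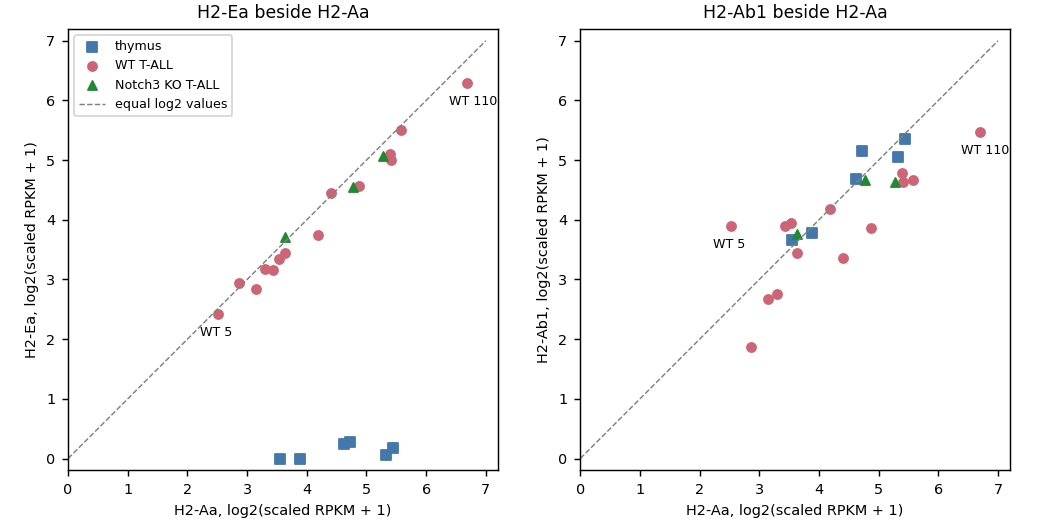
H2-Ea (left) and H2-Ab1 (right) against H2-Aa, each as log2(scaled RPKM + 1), with 1 point per library and a dashed line of equal values. T-ALL libraries follow the line for H2-Ea while thymus libraries lie between 0 and 0.28, and for H2-Ab1 the T-ALL libraries scatter to both sides of it.

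Members varied more from one WT T-ALL to the next than most genes did. The SD of the log2 level over the 14 libraries was 1.43 for Ctss, 1.29 for H2-Eb1, 1.22 for H2-Aa and 1.20 for Cd74, against a median of 0.41 over all genes tested, and 98.2%, 97.5%, 96.9% and 96.7% of genes had a lower SD than these 4. Ciita was closest to the bulk of genes, with 71.0% of genes below its SD of 0.53. In scaled RPKM, the highest library exceeded the lowest 46.8-fold for Ctss, 34.4-fold for H2-DMb1, 28.7-fold for H2-Eb1, 24.4-fold for Ciita, 21.6-fold for H2-Aa, 20.1-fold for Cd74, 16.2-fold for H2-Ab1 and 11.9-fold for H2-DMa. WT T-ALL 110 was the highest library for all 8 members, and without it these folds were, in the same order, 15.7, 10.6, 14.0, 16.2, 9.86, 10.9, 9.93 and 5.13, and the SDs of Ctss and H2-Aa 1.13 and 1.03. The SDs of H2-DMb1 and Ciita then were 0.51 and 0.41, that of Ciita level with the median of all genes over the 14 libraries. WT T-ALL 110 held 207 scaled RPKM of Cd74 and 226 of Ctss. The neutrophil marker list also reached its maximum over the libraries in WT T-ALL 110, 84650 scaled RPKM against a median of 2187, and its part in the members' spread was not tested.

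The members varied together across these tumors. Over the 14 WT T-ALL libraries, all 28 pairs of members correlated positively, with Pearson r from 0.67 to 0.99 (28 of 28 with an adjusted permutation p under 0.05; largest adjusted p = 0.00783) and Spearman rho from 0.48 to 0.98 (22 of 28 with an adjusted permutation p under 0.05; largest adjusted p = 0.0871). The 6 pairs that missed by rho were 5 with H2-DMa and H2-Ab1 with Ctss. By r, H2-Aa with H2-Eb1 was the tightest pair (r = 0.99, rho = 0.98), followed by H2-Eb1 with Cd74 (r = 0.97, rho = 0.97). H2-Aa with Cd74 (r = 0.97) had a rho of 0.98, level with that of the tightest pair. By rho H2-DMa was the loosest partner, at 0.50 with H2-Aa and 0.48 with Ctss, though at 0.74 with H2-DMb1 (r = 0.90). The lowest r was that of H2-Ab1 with Ctss (0.67). Without the 2 libraries farthest from the median of the first gene, r ran from 0.39 (H2-DMa with Ctss) to 0.98. Within the 10 libraries of set B, r ran from 0.67 to 0.99; set A held 4 WT T-ALL libraries, too few for a value.

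The members were then set beside 3 measures of the same libraries: H2-Ea, the mean log2 level of 10 macrophage markers and that of 10 dendritic cell markers. Over the 24 relations, 21 had an adjusted permutation p under 0.05 for Pearson r and 19 for Spearman rho. With H2-Ea, r was 0.99 for H2-Aa (rho 0.99), 0.97 for H2-Eb1 (rho 0.99), 0.97 for Cd74 (rho 0.98) and 0.90 for Ciita (rho 0.87). For H2-Aa the adjusted permutation p was 8e-05 for both r and rho, from the smallest p that 100000 resamples can give (1e-05), and r stayed at 0.99 without the 2 libraries farthest from the median of H2-Ea. H2-Ab1 followed H2-Ea less closely (r = 0.76, rho 0.74, r = 0.61 without the 2 farthest libraries, r = 0.92 within set B), and H2-DMa least (r = 0.65, adjusted permutation p = 0.0132; rho 0.48, adjusted permutation p = 0.101). All values in a library share its depth and scale.

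Ctss gave r = 0.88 with H2-Ea (rho 0.79; r = 0.77 without the 2 farthest libraries), and among the members it had the highest r with the macrophage markers (r = 0.87, adjusted permutation p = 0.00016; rho 0.82, adjusted permutation p = 0.00278; r = 0.86 without the 2 farthest libraries). The classical chains and Cd74 gave r of 0.62 to 0.77 with these markers and 0.53 to 0.78 with the dendritic cell markers. The 3 relations that missed the threshold for r were H2-DMa with both marker lists (r = 0.49 and 0.38, adjusted permutation p = 0.0757 and 0.184) and H2-Ab1 with the dendritic cell markers (r = 0.53, adjusted permutation p = 0.0573). By rho, H2-DMa missed the threshold with all 3 measures, and with the macrophage markers so did H2-Ab1 (rho 0.45, adjusted permutation p = 0.113; r = 0.62, and 0.39 without the 2 farthest libraries) and Ciita (rho 0.54, adjusted permutation p = 0.0577). Within set B, H2-Ab1 gave r = 0.74 with each list. H2-DMa and H2-DMb1 missed the threshold for r there with both lists. With the dendritic cell markers so did H2-Aa (r = 0.65, adjusted permutation p = 0.0545) and Ctss (r = 0.63, adjusted permutation p = 0.0583).

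**Figure D4:**
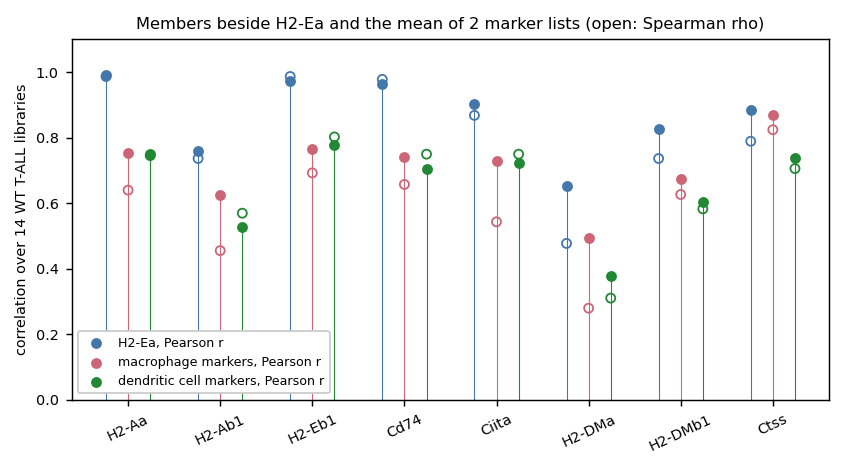
Correlation over the 14 WT T-ALL libraries of each member with H2-Ea, with the mean log2 of the macrophage markers and with that of the dendritic cell markers (filled points Pearson r, open points Spearman rho). The H2-Ea points of H2-Aa, H2-Eb1 and Cd74 lie at 0.97 to 0.99, and those of H2-DMa are the lowest for all 3 measures.

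Among 10965 other genes, those most like the mean of H2-Aa, H2-Ab1, H2-Eb1 and Cd74 over the 17 T-ALL libraries were, by Pearson r, H2-Ea (0.96), Itgax (0.90), Mdfic (0.89), Bcl2a1b (0.89), Naaa (0.89), Chn2 (0.89), Bcl2a1a (0.88) and Cxcl16 (0.88). Itgax encodes CD11c, an integrin chain of dendritic cells, and Cxcl16 a chemokine made by antigen-presenting cells. Bcl2a1a and Bcl2a1b are near-identical copies whose reads may have been split between them. For Ctss alone the list differed: Pla2g7 (0.96), Ctsh (0.95), Ear2 (0.95), Cd302 (0.94), Tmem106a (0.94), Entpd1 (0.94), Lpl (0.94) and Hmgn3 (0.94). Pla2g7 is a secreted phospholipase of macrophages, Ctsh a further lysosomal cathepsin and Lpl lipoprotein lipase. The T-cell receptor subunit Cd3e had r = -0.36 with the class II mean and -0.46 with Ctss. These values describe the 17 libraries and carry no test.

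Against thymus, Notch3 KO T-ALL again showed 0 of 8 members called by limma, with 0 of 8 at an unadjusted p under 0.05, while 37.5% of genes were called (21.2% higher and 16.3% lower). The exact permutation test gave 0 of 8 at an unadjusted p under 0.05. Differences ran from -0.47 (H2-DMb1) to 0.80 (Ctss), 2 of 8 above 0, with a median of -0.12 beside 0.08 over all genes, and 95% intervals of 0.67 to 1.65 to either side. Ctss read 5.40, 4.91 and 5.82 in the 3 knockout libraries, of which 2 lay above every thymus library, for a difference of 0.80 ± 0.80 (SE; adjusted p = 0.444). Cd74 read 6.79, 4.95 and 6.27, with Notch3 KO T-ALL 2 inside the lower thymus range, for a difference of 0.44 ± 0.71 (SE; adjusted p = 0.646). H2-Eb1 read 5.04, 3.00 and 4.55. H2-Aa read 5.27, 3.64 and 4.77, a mean 0.03 below that of thymus.

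All knockout libraries belonged to set A, and within it the directions changed for several members. Against thymus 5 and 6 alone the differences were 0.85 for H2-Aa, 0.62 for H2-Ab1, 1.18 for H2-Eb1, 1.22 for Cd74 and 1.58 for Ctss, with 7 of 8 members above 0 (exact permutation p of at least 0.10, the smallest possible with 3 against 2). With set as a term, H2-Aa, H2-Ab1 and H2-Eb1 differed by 0.84, 0.03 and 0.85. The common-sum scale moved the median of all genes to -0.31 and the share of called genes that were higher from 56.5% to 26.0%, and Cd74 to -0.02.

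Notch3 KO T-ALL against WT T-ALL, the comparison that asks what loss of Notch3 in the graft changed, also called 0 of 8 members by limma, with 0 of 8 at an unadjusted p under 0.05, against a background of 0.617% of 11677 genes. The exact permutation test over all libraries gave 0 of 8 (p from 0.341 to 0.999). The differences were 0.35 for H2-Aa, 0.53 for H2-Ab1, 0.66 for H2-Eb1, 0.73 for Cd74 and 0.81 for Ctss, with 95% intervals of -1.10 to 1.79, -0.58 to 1.64, -0.89 to 2.21, -0.72 to 2.17 and -0.84 to 2.46. A level 2-fold higher lay within all 5 of these intervals, and a level 2-fold lower within 1, that of H2-Aa. Ciita, H2-DMa and H2-DMb1 differed by 0.00, 0.01 and -0.05, signs that other settings turned. H2-Ea differed by 0.45.

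Within set A the 3 knockout libraries exceeded the 4 WT T-ALL libraries for all 8 members, by 1.28 for H2-Aa, 0.55 for H2-Ab1, 1.56 for H2-Eb1, 1.40 for Cd74 and 1.85 for Ctss. For Cd74, Ciita (0.34) and Ctss the groups did not overlap, as for 10.9% of the 10990 genes above the filter in these libraries (6.09% with the knockout higher); Ciita was below that filter. The exact permutation p before adjustment was 0.0286 for Cd74 and Ciita, the smallest that 3 against 4 allow, and 0.0571 for Ctss. H2-Ea moved likewise, by 1.36 (exact permutation p = 0.0286). By limma within set A, 0 of 6 members tested there were called, beside 0.118% of all genes. The summed macrophage list was at 280 to 417 scaled RPKM in the knockout libraries against 36.5 to 128 in the 4 WT T-ALL libraries of set A. The summed erythroid list was at 511 to 2265 against 36.0 to 154 in the same libraries. The part of either list in these differences was not tested.

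The other genes of the pathway, taken from lists that were compiled with earlier results of these data known, were read in the same fits, in which 29.3% of all genes were higher and 22.3% lower in WT T-ALL, and 21.2% higher and 16.3% lower in Notch3 KO T-ALL. Among 5 other class II genes, H2-Ea and H2-Oa rose and H2-Ob fell in WT T-ALL, and H2-Ea rose and H2-Ob fell in Notch3 KO T-ALL. H2-Oa and H2-Ob form H2-DO, the inhibitor of H2-DM, which B cells and some thymic cells make. H2-Ob had a thymus range of 1.83 to 2.53 and a WT T-ALL range of 0.14 to 1.49, without overlap (difference -1.41, adjusted p = 5.07e-07 by limma), and Notch3 KO T-ALL lay between 0.47 and 0.91. H2-Oa, its partner, went the other way in WT T-ALL (0.84, adjusted p = 0.0392 by limma). The call was lost on the common-sum scale (0.45), without thymus 5 and 6 (0.85) and within set A (-0.06). It was also lost when any 1 of 9 single libraries was left out, at 0.73 to 0.83. H2-DMb2 and H2-Eb2 did not pass in either comparison, and H2-DMb2 is a close copy of H2-DMb1, so reads may have been divided between the pair.

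The endosomal genes that feed class II loading split in direction. Of 10 genes, 4 rose and 2 fell in WT T-ALL, and 4 rose and 1 fell in Notch3 KO T-ALL, with median differences of 0.64 and 0.93 beside 0.08 over all genes. In either direction 51.6% and 37.5% of all genes were called in these comparisons, so nothing is read from these counts. Ifi30, the lysosomal thiol reductase GILT, rose by 1.55 and 2.35 log2 units (adjusted p = 0.000148 and 0.000187 by limma), from a thymus mean of 3.57 to 5.12 and 5.92. Lgmn, the asparaginyl endopeptidase that cuts antigens and the invariant chain, rose by 1.39 and 2.49, and Ctsb by 1.17 and 2.11. Ctsl, the cathepsin that processes the invariant chain in thymic epithelium, fell by 2.15 in WT T-ALL (adjusted p = 3.93e-05) and by 1.72 in Notch3 KO T-ALL (adjusted p = 0.0122). Its thymus libraries lay between 5.96 and 6.71 and its WT T-ALL libraries between 2.32 and 5.19, without overlap. The knockout call was lost within set A (-1.96, adjusted p = 0.0670 by limma) and without Notch3 KO T-ALL 1 (-1.08) or 3 (-1.48). Ctss, which does that task in dendritic cells and macrophages, did not pass in either. Without thymus 5 and 6, 3 of the 10 rose and 2 fell in WT T-ALL, beside 21.3% of all genes higher and 17.9% lower.

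Marchf8, a ubiquitin ligase that can take class II and other membrane proteins off the surface, rose by 2.06 in WT T-ALL and 3.96 in Notch3 KO T-ALL (adjusted p = 2.53e-05 and 2.14e-06 by limma). Its levels were 0.29 to 0.76 in thymus, 1.19 to 4.25 in wild-type tumors and 3.31 to 5.49 in knockout tumors, and it passed the filter on low values through T-ALL libraries alone. It is also highly expressed in red cell precursors, and the erythroid marker list moved with it, with sums of 1.58 to 36.1 scaled RPKM (thymus), 36.0 to 1411 (wild-type tumors) and 511 to 2265 (knockout tumors); the part of that list in the result was not tested. Within set A the WT T-ALL difference was 1.52 (adjusted p = 0.0928 by limma). Marchf1, the ligase of dendritic and B cells, differed by 0.65 and 0.87 (adjusted p = 0.0721 and 0.120), and passed in Notch3 KO T-ALL with set as a term (1.33, adjusted p = 0.0169) and with only the compared groups in the fit (adjusted p = 0.0137), and in WT T-ALL without WT T-ALL 4 or 5. Cd83, which opposes it, differed by -0.44 and -0.14 and did not pass, but was called in WT T-ALL on the common-sum scale (-0.69, adjusted p = 0.0174 by limma), with quantile normalization (-0.64, adjusted p = 0.0204), without thymus 5 and 6 (-0.74, adjusted p = 0.0414) and without WT T-ALL 110 (-0.54, adjusted p = 0.0437).

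Upstream of the class II promoters, 3 of 7 binding factors fell in each T-ALL group and none rose, beside 51.6% and 37.5% of all genes called in either direction, so nothing is read from this count either. Rfxank, a subunit of the X-box complex RFX, fell by 0.99 and 1.03 (adjusted p = 6.17e-05 and 0.00283 by limma), Rfxap by 0.25 and 0.47, and Creb1 by 0.59 and 0.84. Within set A the Rfxap calls (-0.12 and -0.48, adjusted p = 0.707 and 0.121 by limma) and the Creb1 call in WT T-ALL (-0.41, adjusted p = 0.209) were lost. The Rfxap call in WT T-ALL was also lost without thymus 5 and 6 (-0.25) or without thymus 2, 3 or 5 alone (-0.24 to -0.22). Rfx5 (-0.07 and -0.30) and the NF-Y subunits did not pass, although Nfya was called lower in WT T-ALL within set B (-0.65), without thymus 5 and 6 (-0.53), on the common-sum scale (-0.77), with quantile normalization (-0.40) and when any 1 of 4 single libraries was left out. Of 6 tested genes of the interferon gamma pathway, the main inducer of Ciita outside dedicated antigen-presenting cells, 5 fell in WT T-ALL and 3 in Notch3 KO T-ALL, beside 22.3% and 16.3% of all genes lower. The receptor chains Ifngr1 and Ifngr2 fell by 1.44 and 1.01 in WT T-ALL, and Socs1, the feedback inhibitor, fell by 2.39 in WT T-ALL and 3.19 in Notch3 KO T-ALL. Within set A 2 of the 6 fell in each group, beside 6.37% and 9.85% of all genes lower there, and without thymus 5 and 6 the numbers were 5 and 2, beside 17.9% and 13.2%. The Jak2 call in WT T-ALL was lost when any 1 of 9 single libraries was left out, and the Ifngr1 call in Notch3 KO T-ALL when any 1 of 4 was. Irf1 (0.29 and 0.17) did not pass. T cells express these receptors and kinases too, and the T-cell list summed lower at its median in WT T-ALL (1709 scaled RPKM) than in thymus (2283); its part was not tested. On the common-sum scale, 6 promoter factors fell in WT T-ALL and 4 in Notch3 KO T-ALL, and 5 interferon gamma genes fell in each, where 38.7% and 30.3% of all genes were lower. Of the costimulatory genes, Cd80, which reached the filter in T-ALL libraries alone, passed in WT T-ALL (0.55, adjusted p = 0.0460 by limma) and Cd86 in Notch3 KO T-ALL (1.07, adjusted p = 0.0443). Neither passed without thymus 5 and 6 (0.48 and 0.87). The calls were also lost when any 1 of 13 (0.51 to 0.58) and of 7 (0.93 to 1.23) single libraries was left out. Between the T-ALL groups no gene of these lists was called as first fitted. With set as a term, Lgmn (1.83, adjusted p = 0.0327 by limma), Ctsd (1.13, adjusted p = 0.0484) and Marchf8 (2.58, adjusted p = 0.0247) passed, with the knockout tumors higher, beside 1.29% of all genes. Marchf8 was also called with all 3 groups in the fit and without WT T-ALL 108 or Notch3 KO T-ALL 1; within set A none of the 3 was called.

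**Figure D5:**
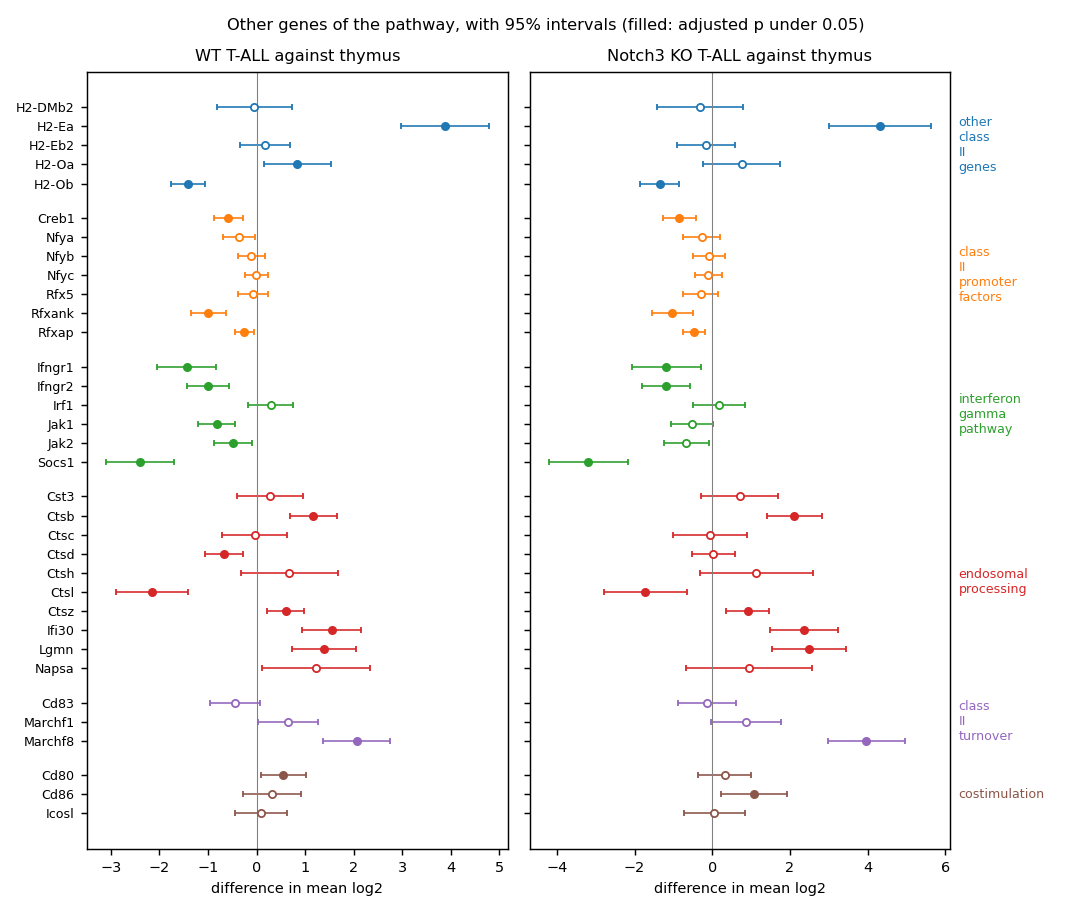
Difference in mean log2(scaled RPKM + 1) of the other pathway genes in WT T-ALL (left) and Notch3 KO T-ALL (right) against thymus, with 95% intervals (filled points have an adjusted p under 0.05; horizontal axes differ). H2-Ea, Marchf8, Ifi30, Lgmn and Ctsb lie above 0 and H2-Ob, Ctsl, Socs1 and Rfxank below 0 in both panels.

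Markers of the cells that can make class II were read beside the members. Of 4 B cell markers tested, 3 fell in each T-ALL group and none rose, with or without thymus 5 and 6 (beside 22.3% and 16.3% of all genes lower with them, and 17.9% and 13.2% without). Cd79b fell by 2.60 and 3.07 log2 units and Cd79a by 1.68 and 1.63. Blk did not pass, at -0.07 in WT T-ALL and 0.18 in Notch3 KO T-ALL. Of the 3 that fell, Cd79a and Ms4a1 passed the filter through thymus libraries alone, so their count supports nothing. The sum of the 7 listed genes was 18.1 to 23.8 scaled RPKM for thymus, 0.914 to 15.7 for wild-type tumors and 1.80 to 6.60 for knockout tumors, where Pax5 was listed at 0 in all 3 libraries. Blk alone reached 14.1 scaled RPKM in wild-type and 5.83 in knockout tumors, against at most 2.33 in thymus. Macrophage markers rose: 9 of 10 in WT T-ALL and 10 of 10 in Notch3 KO T-ALL, beside 29.3% and 21.2% of all genes higher, with median differences of 1.35 and 2.87; 2 of them, Mertk and Cd163, passed the filter through T-ALL libraries alone. Vcam1 (by 2.63 and 4.14) and Spic, the factor of splenic red pulp macrophages (by 2.19 and 3.25), moved furthest. The 10 macrophage markers summed to 9.75 to 63.9 scaled RPKM for thymus, lowest in thymus 5 and 6, and to 23.6 to 404 for WT T-ALL. Without thymus 5 and 6, 3 of the 10 were called in WT T-ALL and 9 of 10 in Notch3 KO T-ALL, beside 21.3% and 16.1% of all genes higher. In WT T-ALL 6 of the 10 rose within set A (8.84% of all genes higher), 5 within set B (23.1%) and 6 on the common-sum scale (15.7%).

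Dendritic cell markers were mixed, with 4 of 7 called in each T-ALL group beside 51.6% and 37.5% of all genes. Of the 7, Irf8, Clec9a and Zbtb46 rose in both T-ALL groups, by 0.92, 0.48 and 0.54 in WT T-ALL and by 1.26, 1.01 and 1.02 in Notch3 KO T-ALL, and Ccr7, which maturing thymocytes also express, fell by 2.61 and 2.92. Without thymus 5 and 6 none of the 7 was called higher in WT T-ALL and 2 were in Notch3 KO T-ALL, beside 21.3% and 16.1% of all genes. Irf8, Clec9a and Zbtb46 were then at 0.66, 0.47 and 0.50 in WT T-ALL. On the common-sum scale 1 and 2 were called higher, beside 15.7% and 10.7%. Xcr1, Siglech and Cd209a were below the filter. Clec9a and Zbtb46 passed it through T-ALL libraries alone, so the filter favoured a rise and their count supports nothing. Thymic epithelium was thinly represented even in the thymus libraries, where its 8 markers summed to 4.08 to 7.25 scaled RPKM and Foxn1 did not exceed a log2 level of 0.06; the sum lay between 0.0215 and 5.55 for wild-type tumors and between 0.361 and 3.85 for knockout tumors. Krt5, Foxn1 and Psmb11 were listed at 0 in all 3 Notch3 KO T-ALL libraries, and in 10, 11 and 13 of the 14 WT T-ALL libraries. Krt5 and Krt14, keratins of other epithelia too, reached 2.07 and 2.06 scaled RPKM in WT T-ALL, above every thymus library (at most 0.291 and 0.0451). The only epithelial marker above the filter, Epcam, fell by 1.72 in WT T-ALL and by 1.17 in Notch3 KO T-ALL. The knockout call was lost with set as a term (-1.04, adjusted p = 0.0612 by limma), within set A (-1.04, adjusted p = 0.148), with either smaller offset (0.1 or 0.01), and when Notch3 KO T-ALL 1 (-0.73) or 3 (-1.06) was left out. How much each cell type contributed to the members' levels was not tested.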

How the data were processed

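The authors made stranded mRNA libraries, sequenced 100 bp paired-end reads, mapped them in ArrayStudio (OSA aligner, mm10 transcriptome; versions not given in the sources used here) and deposited log2(scaled RPKM + 1) per gene and library. Genes with symbols turned to dates (27) were restored by gene identifier. Counts were not used here, so totals per library are unknown; only relative depth was recovered. Groups follow the sample titles. Differences were tested with limma 3.58.1 in R 4.3.3 (trend and robust moderation, Benjamini-Hochberg adjustment over all genes that reached a scaled RPKM of 1 in 3 libraries or more), thymus comparisons in 1 fit of 3 groups and the T-ALL comparison on the 2 T-ALL groups; the fit was tested on simulated data. Single values used exact permutation tests and correlations 100000 permutations (Python 3.11.15, numpy 2.4.6, scipy 1.17.1, pandas 2.3.3), adjusted over 24 or 28 relations. Folds and differences are on the log2(value + 1) scale, which understates changes of low genes. Named genes are the 8 members, genes of the pathway and marker lists, and the 8 most like the class II mean and Ctss, leaving out predicted genes and immunoglobulin and T-cell receptor segments. Members and lists were chosen with earlier results of these data known. Alternatives were offsets of 0.1 and 0.01, filters, quantile and common-sum scaling, moderation, groups in the fit, single libraries left out, and a replicate block. Settings on library sets and thymus 5 and 6 were added after seeing the data. Results for 1 gene of the interferon gamma list and 1 of the B cell list are not reported here.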

Additional observations from a re-analysis of the deposited data

How the results depend on the processing

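The replicate numbers in the labels do not pair the samples: same-numbered samples come from different mice, and their deviations from the group means correlated at -0.24 to 0.15. In the fit with a replicate block, 2 members were called for WT T-ALL (H2-Aa at -1.33, H2-Eb1 at -1.67) and 1 for Notch3 KO T-ALL against thymus (H2-Ab1 at -0.84). That fit called 1942 of 10546 genes for WT T-ALL and 3630 of 10828 for Notch3 KO T-ALL. H2-Ea was called against thymus under every alternative run, with differences of at least 2.87 for WT T-ALL and up to 8.50 for Notch3 KO T-ALL. Its low thymus level was set in advance by the strain, so these calls support nothing about the tissue.

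For WT T-ALL, the members called numbered 2 on the common-sum scale (H2-Ab1 and H2-DMb1), beside 54.4% of all genes, and 1 without thymus 5 and 6, beside 39.2%. With 1 library left out they numbered 0 to 2, the 2 without WT T-ALL 110, where 6313 of 11855 genes were called. Within set A 1709 genes were called, and H2-Ab1 turned to 0.0699; within set B Ctss turned to 0.0177, and with 1 library left out Ctss ran from -0.26 to 0.15. For Notch3 KO T-ALL against thymus, leaving out 1 library gave 2859 genes (without Notch3 KO T-ALL 3) to 4714 (without WT T-ALL 110), -0.38 to 0.43 for H2-Aa, -0.46 to 0.0284 for H2-Ab1, -0.56 to 0.46 for H2-Eb1 and -0.33 to 0.12 for H2-DMa; the upper ends for these 4 members came without Notch3 KO T-ALL 2. Within set A 2825 genes were called, with H2-Aa at 0.85, H2-Ab1 at 0.62, H2-Eb1 at 1.18 and H2-DMa at 0.10. With set as a term H2-Aa was at 0.84, H2-Ab1 at 0.0297, H2-Eb1 at 0.85, Ciita at 0.23 and H2-DMa at 0.24. On the common-sum scale Cd74 was at -0.0181.

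Between the T-ALL groups the count of all genes called, 72, became 254 with 3 groups in the fit, 6 with the filter at 5, 134 with no filter, 39 and 2 with offsets of 0.1 and 0.01, 159 with set as a term, 13 within set A, and 3 to 205 with 1 library left out. The lows came without Notch3 KO T-ALL 2 (3 genes) and 3 (12 genes), and the highs without Notch3 KO T-ALL 1 (205) and WT T-ALL 108 (158). Ciita turned to 0.17 and 0.26 with offsets of 0.1 and 0.01 and to 0.34 with set as a term. H2-DMb1 turned to 0.0072, 0.0233 and 0.41 under the same settings, and H2-DMa to -0.0454 with quantile normalization and -0.0441 on the common-sum scale. With 1 library left out, H2-Aa ran from -0.0099 to 0.81, Ciita from -0.15 to 0.0925, H2-DMa from -0.21 to 0.25 and H2-DMb1 from -0.23 to 0.25. The cause of these shifts was not tested. Of the 24 relations with the 3 measures, 21 were called as reported, 20 with an offset of 0.1, 20 with quantile normalization, 21 on the common-sum scale, 20 without the 2 farthest libraries and 18 within set B. Ciita and H2-DMb1 dropped out of the tests with the filter at 5. Read counts were not used here, so the precision of the low genes, Ciita and H2-DMb1 above all, is known only by the spread between libraries, and 3 knockout libraries leave intervals of over 2-fold for most members.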
